A study of Mus musculus with 4 samples.

Results

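Long noncoding RNAs that were expressed in mouse embryonic stem (ES) cells with or without the NUP98-HOXA9 fusion are described here. The members are genes that GENCODE vM21 (mouse build GRCm38) classes as lincRNA (intergenic) or antisense and that reached at least 5 TPM (a level scaled by transcript length and depth) in at least 1 of 4 libraries. Of 55401 gene identifiers in the tables, 8570 were of these classes after leaving out H19, Meg3, Rian, Mirg, Hoxa11os and Gm49089, and 163 of these were members, 125 lincRNA and 38 antisense genes. Because TPM chose the members, their levels are a description. Just inside the threshold, the highest TPM of E130307A14Rik and of Gm807 was 5.15 and that of Etaa1os was 5.17, and just outside it lay Gm13375 at 4.99, Gm13580 at 4.98 and 0610040F04Rik at 4.97.

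RNA of EB3 mouse ES cells, grown without feeder cells on gelatin with LIF, was sequenced from 1 library of parental cells, 1 library of cells with an empty vector and 2 libraries of cells with genotype NUP98-HOXA9, called fusion 1 and fusion 2 here. NUP98-HOXA9 joins a nuclear pore protein to a homeobox transcription factor and is known from leukaemia. The parental and empty-vector libraries formed the wild-type group (n = 2) and the fusion libraries the other (n = 2). The sources used here do not give the promoter that drives the fusion, nor whether the fusion libraries come from separate clones or cultures. The p-values therefore cover only the variation among these 4 libraries, which may be technical, and the wild-type group mixes 2 kinds of control with 1 library each.

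Long noncoding RNAs are transcribed and spliced like messenger RNAs but carry no long reading frame. Some stay at their own locus, where their transcription or the DNA they span can affect neighbouring genes, while others build nuclear bodies, bind proteins or serve as precursors of small RNAs. In ES cells several are tied to the pluripotent state, and a group named Platr, for pluripotency-associated transcripts, was defined by a drop in level when such cells differentiate.

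The libraries held 19021332 to 21151712 expected counts. Hoxa9, to which reads of the fusion could be assigned, was listed at TPM 0 in both wild-type libraries and at 249.52 and 172.31 in fusion 1 and fusion 2. The 9 ES cell markers, among them Pou5f1 and Nanog, were all tested by edgeR and 0 passed. Of these, 2 were higher at an unadjusted p under 0.05 and by the DESeq2 Wald test, and 0 by limma. Klf4 (log2 1.4, adjusted p = 0.0651 by edgeR) and Nanog (log2 1.11, adjusted p = 0.0867) had the largest increases, while the median log2 fold change of the 9 was 0.0246. Their summed TPM was 5840 in the parental library, 6880 with the empty vector, 6950 in fusion 1 and 8130 in fusion 2. All 9 endoderm markers were higher in the fusion libraries by edgeR and the DESeq2 Wald test and 7 by limma, from summed TPM of 15.7 and 12.6 to 113 and 143. Of 8 markers of cells like the 2-cell embryo, 6 were higher by edgeR, 7 by the DESeq2 Wald test and 1 by limma, with sums of 4.25, 14.3, 81.4 and 414 in the order parental, empty vector, fusion 1, fusion 2. Of 7 fibroblast markers tested 1 was higher by edgeR (Pdgfrb), and 1 by the DESeq2 Wald test and by limma. Of 4 blood markers tested 1 was higher by edgeR (Kit), 2 by the DESeq2 Wald test and 1 by limma. Runx1 had 0.55, 0.41, 1.33 and 4.24 TPM in the same order (log2 2.61, adjusted p = 0.0792 by edgeR). Cd34 was the 1 tested blood marker with a negative log2 fold change (-0.311). The untested blood marker Ptprc stayed at 0.05 TPM or less in every library. The part of these marker shifts in the results on noncoding RNAs was not tested, and in such bulk samples fewer cells of a type and less RNA per cell cannot be told apart.

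The 163 noncoding RNAs made up 0.261% of all TPM in the parental library, 0.333% with the empty vector, 0.286% in fusion 1 and 0.307% in fusion 2. The fusion libraries thus lay between the wild-type libraries. Their median level, taken over the mean of the 4 libraries, was 8.43 TPM, against 23.3 TPM for protein-coding genes that passed the same threshold, and their median length was 818 bases against 2242. Of the 163, 106 reached 5 TPM in the parental library, 121 with the empty vector, 124 in fusion 1 and 128 in fusion 2, and 85 reached it in all 4 libraries. Both groups held a library at 5 TPM for 113 members, only the fusion group for 33 and only the wild-type group for 17. The 33 and the 17 had to be below 5 TPM in the other group, so the threshold in part sets their direction.

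The comparison of fusion with wild type asked which noncoding RNAs differ when the fusion is present. Of 161 members tested, 7 (4.35%) were higher and 1 (0.621%) was lower in the fusion libraries by edgeR's quasi-likelihood test with Benjamini-Hochberg adjustment over all 16511 genes tested. Over all genes 3.42% passed, 2.83% higher and 0.581% lower, so the members' shares lay near the background in this fit. With no filter on low counts 16% of the members passed against 6.75% of all genes, and by the DESeq2 Wald test 11% against 7.73%. At an unadjusted p under 0.05 stood 43 members (26.7%) against 20.1% of all genes. Both fusion libraries lay above both wild-type libraries in TPM for 47 tested members (29.2%, background 32.4%) and below them for 37 (23%, background 16.6%). The tested members had a median log2 fold change of -0.03, against -0.00341 over all genes tested. Of the 8 members that passed, 6 had entered through the fusion group alone and so had to be high there, while Halr1 and Platr10 reached the threshold in both groups.

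**Figure D1:**
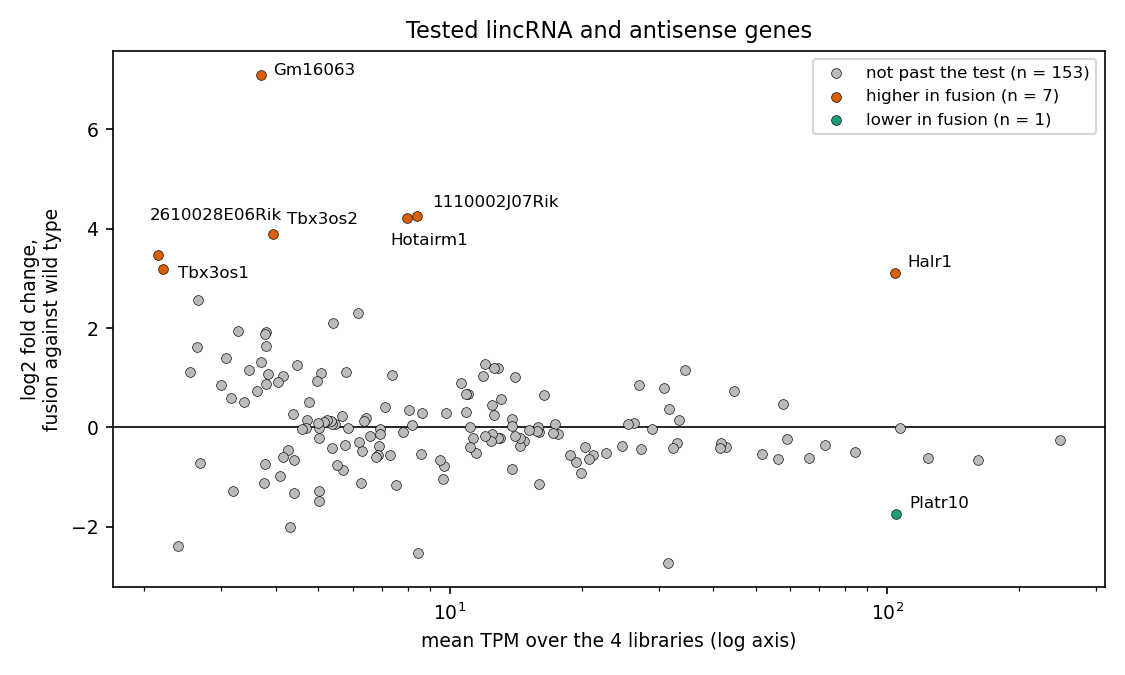
Log2 fold change of fusion against wild type for the 161 tested noncoding RNAs, plotted against their mean TPM over the 4 libraries on a log axis; each point is 1 gene. The 7 genes called higher in fusion lie at log2 3.1 and above, and Platr10 is the 1 gene called lower. The fitted fold of Gm16063 rests on 2 wild-type counts.

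The members called higher sat mainly at 2 places in the genome. Gm16063, Tbx3os1 and Tbx3os2 lie around Tbx3, a T-box transcription factor gene that supports self-renewal of mouse ES cells, and Halr1 and Hotairm1 lie within or beside the HoxA cluster of homeobox genes. They make up 5 of the 7 higher members. The remaining higher members, 1110002J07Rik and 2610028E06Rik, had no protein-coding gene within 50 kb.

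At the Tbx3 locus, Gm16063 (lincRNA, chr5:119625942-119634464, plus strand) had a TPM of 0.04 in the parental library, 0.05 with the empty vector, 8.86 in fusion 1 and 5.8 in fusion 2. It was close to absent in both wild-type libraries and present in both fusion libraries. Its expected counts summed to 2 in the wild-type and 331 in the fusion group, a ratio of 150 at equal depth (95% exact interval 41.3 to 1250, which covers counting error only), with adjusted p = 0.00844 by edgeR. Tbx3os2 (lincRNA, chr5:119685095-119691218, minus strand) had 0.49 TPM in the parental library, 0.42 with the empty vector, 8.96 in fusion 1 and 5.85 in fusion 2. The groups did not overlap, and its log2 fold change was 3.89 ± 0.513 (SE; adjusted p = 0.0168 by edgeR). Tbx3os1 (antisense, chr5:119570130-119671365, minus strand) stood at 0.24, 0.32, 5.17 and 3.09 TPM in the same order. It too was low in both wild-type libraries and higher in both fusion libraries, by log2 3.18 ± 0.553 (adjusted p = 0.0338).

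Tbx3 itself rose with them, from 13.62 and 27.75 TPM to 178.88 and 146.26 TPM, a log2 fold change of 2.86 ± 0.297 (adjusted p = 0.00863 by edgeR). Tbx3os1 starts 696 bp from the start of Tbx3 on the other strand and their exons overlap, Tbx3os2 lies 0.4 kb downstream of Tbx3, and Gm16063 lies 36.2 kb upstream of it, within the span of Tbx3os1 on the opposite strand. The library kit keeps strand, but the sources do not say whether the counting used it, so reads of Tbx3os1 and Tbx3 may not be told apart where they overlap. The expected counts of Tbx3os1 were whole numbers in every library, and whether it shared reads with Tbx3 was not tested. Another lincRNA between them, Gm16064, was below the threshold with 0, 0, 1.14 and 0.36 TPM.

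At the HoxA locus, Halr1 (lincRNA, chr6:52102949-52113684, plus strand) is transcribed from a stretch beside the cluster known to hold its enhancers. Its TPM was 15.84 in the parental library, 25.24 with the empty vector, 212.88 in fusion 1 and 163.63 in fusion 2. Unlike the other higher members it was well expressed without the fusion, and it was among the 10 members with the highest mean TPM over the 4 libraries. The log2 fold change was 3.10 ± 0.311 (SE; adjusted p = 0.00851 by edgeR). Hotairm1 (antisense, chr6:52156902-52162119, plus strand), a transcript of the cluster first described in myeloid cells, had 0.74, 0.55, 19.51 and 11.11 TPM. It was below 1 TPM in both wild-type libraries and above 10 TPM in both fusion libraries, a log2 fold change of 4.21 ± 0.657 (adjusted p = 0.0264).

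Exons of Hotairm1 overlap coding exons on the other strand and its counts were not whole numbers in 3 libraries, so the same limit on strand applies, while Halr1 overlaps no coding exon and lies 43.2 kb from Hotairm1. Hoxaas3, an antisense gene further into the cluster, missed the TPM threshold with 0, 0.15, 4.42 and 2.8 TPM and passed the same test (adjusted p = 0.0311 by edgeR).

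**Figure D2:**
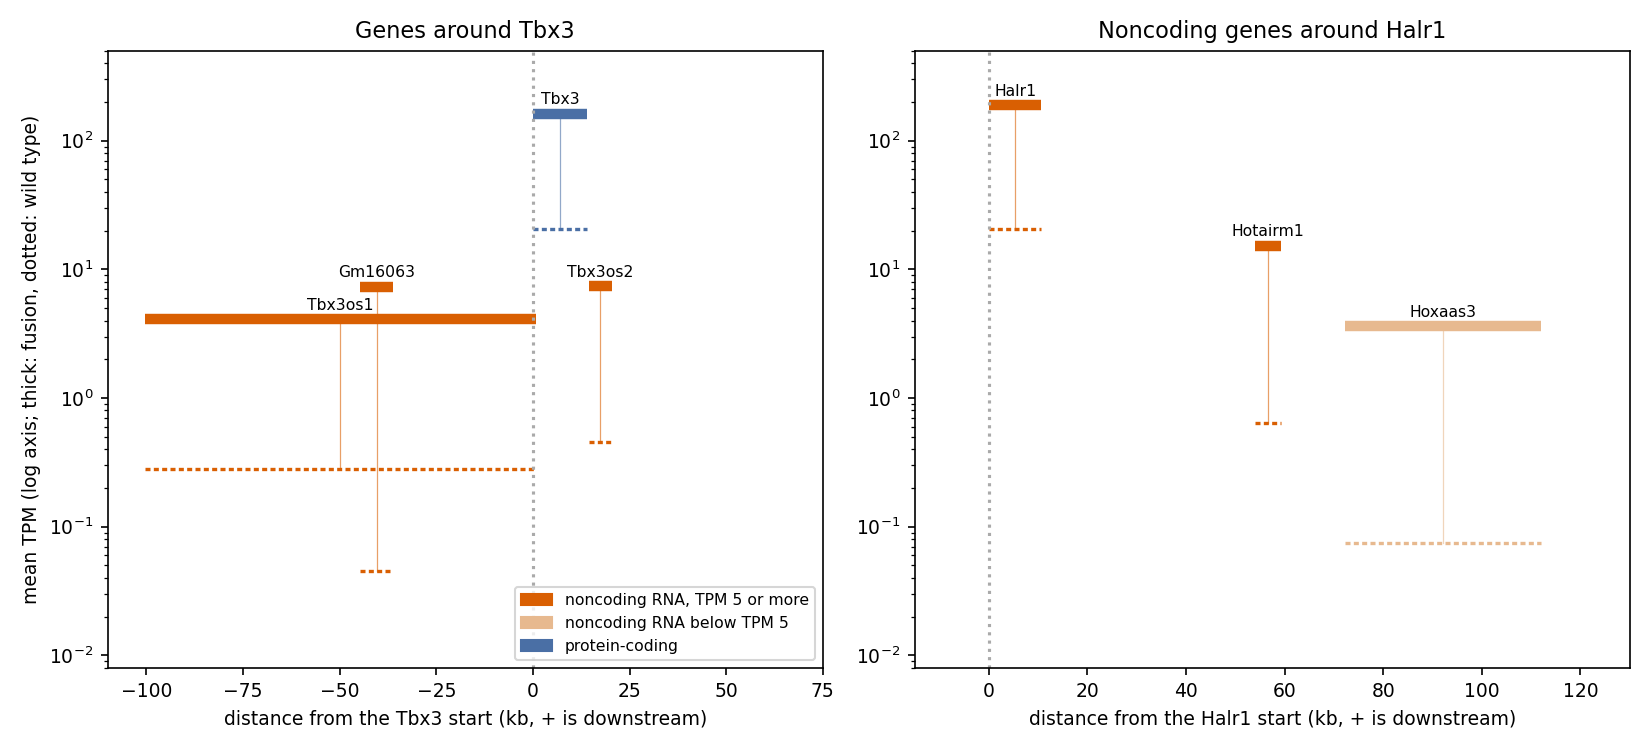
Mean TPM (log axis) against distance in kb, for tested genes around the Tbx3 start (left) and for tested noncoding genes around the Halr1 start (right), with thick bars for the fusion group and dotted bars for the wild-type group (n = 2 each). Every gene drawn lies higher in the fusion group, Tbx3 with the 3 noncoding RNAs around it, and Halr1, Hotairm1 and Hoxaas3.

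The other members at Hox genes were not called by edgeR, and the DESeq2 Wald test called Hoxb5os. Gm53, a lincRNA in the HoxB cluster next to Hoxb9, had 5.08, 9.73, 20.12 and 12.6 TPM. The groups did not overlap, and its log2 fold change of 1.04 ± 0.449 missed the threshold (adjusted p = 0.257 by edgeR), while Hoxb9 passed (log2 3.26, adjusted p = 0.0369). Hoxb5os, which overlaps exons of Hoxb5 on the other strand, was listed at 0 in both wild-type libraries, at 6.38 TPM in fusion 1 and at 0.8 TPM in fusion 2. It reached 5 TPM in fusion 1 alone and so had to be high there. It did not pass the filter on low counts, though edgeR called it with no filter. Its 51 fusion counts were at least 15.4-fold higher than a floor of 3 counts over the wild-type group.

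Of the higher members away from these loci, 1110002J07Rik (lincRNA, chr10:66912489-66920258, minus strand) had 0.32 TPM in the parental library, 1.44 with the empty vector, 17.55 in fusion 1 and 14.39 in fusion 2. Both fusion libraries were above both wild-type libraries, by log2 4.26 ± 0.491 (SE; adjusted p = 0.0118 by edgeR). 2610028E06Rik (lincRNA, chr4:125887851-125922417, minus strand) had 0.28, 0.26, 5.89 and 2.15 TPM. The fusion libraries were higher but unequal, and the log2 fold change was 3.47 ± 0.672 (adjusted p = 0.0441).

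Platr10 (lincRNA, chr3:75647446-75655731, minus strand) was the 1 member called lower by edgeR, among 37 with both fusion libraries below both wild-type libraries. It was among the most abundant noncoding RNAs of the wild-type cells, with 163.79 TPM in the parental library and 152.84 TPM with the empty vector, and it stood at 35.37 TPM in fusion 1 and 66.39 TPM in fusion 2. The wild-type libraries were close to each other and both fusion libraries were lower, a log2 fold change of -1.75 ± 0.299 (SE; adjusted p = 0.0325 by edgeR). Its nearest protein-coding gene, Serpini1, lies 3951 bp away and did not pass (log2 -0.82, adjusted p = 0.274).

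**Figure D3:**
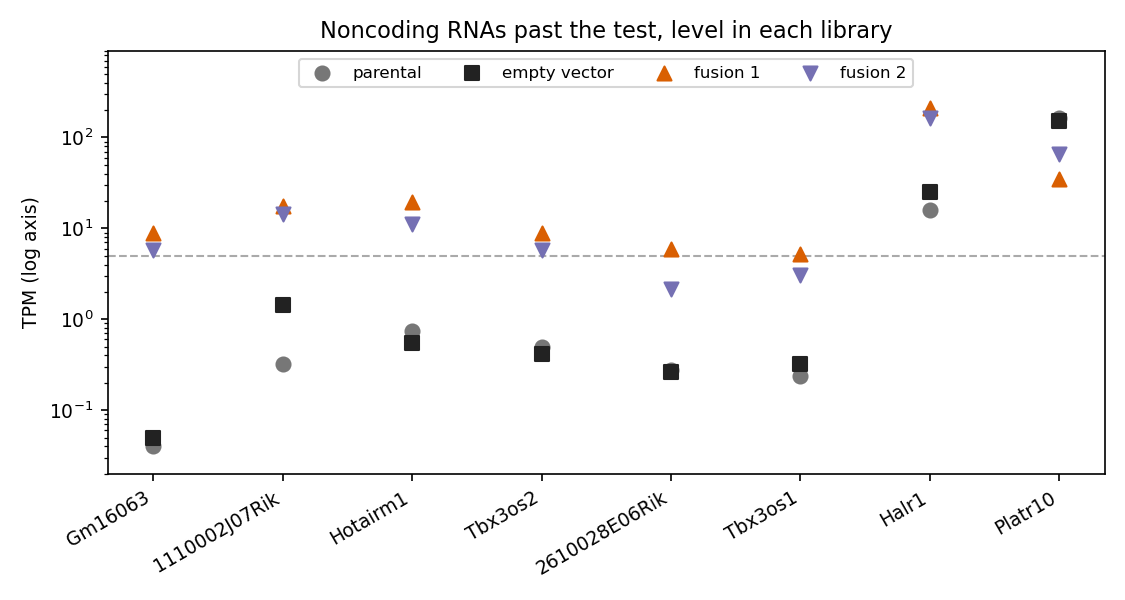
TPM (log axis) of the 8 noncoding RNAs that passed the test, in each of the 4 libraries; the dashed line marks 5 TPM, which chose the members. In 7 genes both fusion libraries lie above both wild-type libraries, and in Platr10 both lie below.

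Leaving out a library ended some calls. These fits, and those against 1 control alone, have an arm of 1 library, which is assumed to vary like the others: without fusion 1 the spread comes from the unlike controls only, and against 1 control from the fusion libraries only. Without fusion 1, Gm16063 (adjusted p = 0.0347 by edgeR) and Halr1 (0.0395) still passed, while the adjusted p was 0.0528 for 1110002J07Rik, 0.0657 for Tbx3os2, 0.0795 for Platr10, 0.129 for Hotairm1, 0.15 for Tbx3os1 and 0.206 for 2610028E06Rik. The fold changes kept their direction in that fit. Hotairm1 also missed the threshold without the empty-vector library (adjusted p = 0.0503), and Tbx3os1 and 2610028E06Rik missed it without the parental library (0.0741 and 0.0871) or without the empty-vector library (0.0696 and 0.0858), with log2 fold changes that hardly moved (3.16 and 3.18 for Tbx3os1, 3.44 and 3.46 for 2610028E06Rik). Set against each control alone, Gm16063, Halr1, 1110002J07Rik and Tbx3os2 passed against both, whereas Platr10 did not pass against the parental (adjusted p = 0.0574) or the empty-vector library (0.088).

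RefSeq (GRCm38.p6) gave a promoter, 250 bases before to 50 after the annotated start, for 84 of the 163 members. Those of the members that passed are shown as annotated, since no start of transcription was measured here. Gm16063 and Hotairm1 had no match. The window lies 143 bases from the GENCODE start by annotated start in Tbx3os1 and 126 bases in 1110002J07Rik. Capitals mark matches, on either strand, to 4 motifs: TAATTA, a core bound by homeobox proteins, TGATTNAT, a site of HOX proteins with their cofactors, AGGTCA, a core of nuclear receptor sites, and ATGCAAAT, the octamer bound by POU proteins. Sequences run 5′ to 3′ on the strand of the gene, on build GRCm38.
Halr1, chr6:52102699-52102998, plus strand: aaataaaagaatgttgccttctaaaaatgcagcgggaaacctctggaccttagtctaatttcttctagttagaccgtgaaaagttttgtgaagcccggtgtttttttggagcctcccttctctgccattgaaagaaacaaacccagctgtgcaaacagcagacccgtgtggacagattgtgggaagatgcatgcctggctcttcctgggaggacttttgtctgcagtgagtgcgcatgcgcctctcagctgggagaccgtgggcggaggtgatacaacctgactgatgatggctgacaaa
Tbx3os1, chr5:119671459-119671758, minus strand: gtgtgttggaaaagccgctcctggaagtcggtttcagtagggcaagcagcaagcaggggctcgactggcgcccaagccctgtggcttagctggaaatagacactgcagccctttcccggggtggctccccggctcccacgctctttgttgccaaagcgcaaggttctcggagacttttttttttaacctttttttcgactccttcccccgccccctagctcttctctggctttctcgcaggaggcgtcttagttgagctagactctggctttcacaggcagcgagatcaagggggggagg
Tbx3os2, chr5:119691169-119691468, minus strand: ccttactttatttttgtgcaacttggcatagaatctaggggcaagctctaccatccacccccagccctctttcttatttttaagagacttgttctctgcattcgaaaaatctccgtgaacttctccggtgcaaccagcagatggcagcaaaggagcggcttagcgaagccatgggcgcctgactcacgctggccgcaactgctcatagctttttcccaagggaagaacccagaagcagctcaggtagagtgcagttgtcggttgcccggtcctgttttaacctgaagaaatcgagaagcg
1110002J07Rik, chr10:66920335-66920634, minus strand: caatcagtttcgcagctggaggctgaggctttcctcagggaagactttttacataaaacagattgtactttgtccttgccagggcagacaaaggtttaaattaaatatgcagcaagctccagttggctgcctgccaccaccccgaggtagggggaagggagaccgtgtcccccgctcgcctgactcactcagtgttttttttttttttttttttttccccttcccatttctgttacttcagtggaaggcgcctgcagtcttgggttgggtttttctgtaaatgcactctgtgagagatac
2610028E06Rik, chr4:125922354-125922653, minus strand: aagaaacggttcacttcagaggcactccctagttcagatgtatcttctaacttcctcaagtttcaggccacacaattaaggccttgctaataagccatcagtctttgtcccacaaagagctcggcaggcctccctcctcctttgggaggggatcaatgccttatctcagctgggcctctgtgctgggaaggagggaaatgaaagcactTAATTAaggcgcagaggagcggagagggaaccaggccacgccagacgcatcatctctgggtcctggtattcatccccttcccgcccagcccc
Platr10, chr3:75655682-75655981, minus strand: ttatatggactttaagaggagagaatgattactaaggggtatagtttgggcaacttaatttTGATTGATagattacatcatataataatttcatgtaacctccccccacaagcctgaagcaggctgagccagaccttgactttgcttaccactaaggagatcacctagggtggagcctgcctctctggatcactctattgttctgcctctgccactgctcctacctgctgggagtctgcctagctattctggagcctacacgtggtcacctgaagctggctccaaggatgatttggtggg
The promoter of 2610028E06Rik held TAATTA 42 bases before the start, and that of Platr10 held TGATTNAT 189 bases before it. The other 4 windows held none of the 4 motifs. Over the 84 member promoters, TAATTA was found in 4.76% against 5.29% of 32851 promoters of all genes, TGATTNAT in 3.57% against 3.22%, AGGTCA in 10.7% against 16.3% and ATGCAAAT in 5.95% (5 promoters) against 1.74%. The member promoters held a median of 9.5 CG pairs, against 7 for all promoters. Some of the 84 windows lie far from the GENCODE start, as 114797 bases in 2700054A10Rik and 63876 bases in Gm26564. Such windows may not be promoters of the transcripts measured here.

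The classes that chose the members, intergenic and antisense, refer to position themselves. How many members lie near a coding gene thus depends in part on that choice. Exons of 29 of the 38 antisense members overlap coding exons on the other strand. A protein-coding gene lay within 50 kb of 124 members, and for 110 of these both genes were tested. By edgeR the coding neighbour was higher in 7 pairs and lower in 0 (6 lower at an unadjusted p under 0.05, 2 by the DESeq2 Wald test and 0 by limma), and in 3 pairs member and neighbour both passed in the same direction; all 3 are the pairs with Tbx3 and so share 1 coding gene. Over all protein-coding genes tested, 3.01% were higher and 0.623% lower. In the other 4 pairs with a higher neighbour (Gm53 and Hoxb9, Gm17322 and Cyp11a1, 4930461G14Rik and Insyn1, Platr7 and Ckap4) the member did not pass. The fold changes of member and neighbour had the same sign in 64 of the 110 pairs (58.2%). Their correlation over these pairs, which share the libraries, was r = 0.46 (Pearson) and rho = 0.35 (Spearman). Over the 107 pairs without Tbx3 it was r = 0.23 and rho = 0.29. Of the 163 members, exons of 33 overlap coding exons on the other strand and exons of 5 on the same strand, as Gm17322 with Cyp11a1. Members and neighbours that overlap may share reads, and the part of this in the correlation was not tested.

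**Figure D4:**
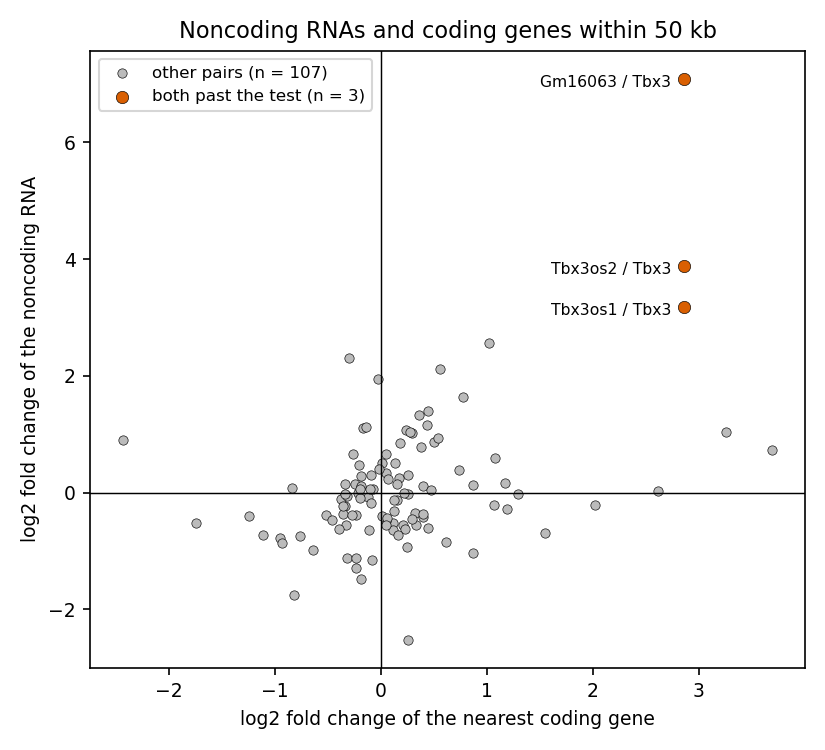
Log2 fold change (fusion against wild type) of each noncoding RNA against that of its nearest protein-coding gene within 50 kb, for 110 pairs in which both were tested. The 3 pairs in which both passed, all with Tbx3, lie at the upper right, and the other 107 pairs spread around 0.

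Of 15 members on the list of ES cell noncoding RNAs, 0 were higher and 1, Platr10, was lower by edgeR, and the DESeq2 Wald test and limma gave the same counts. At an unadjusted p under 0.05 stood 1 higher and 3 lower, and the list's median log2 fold change was -0.07. The list held 10 Platr genes, of which 9 did not pass. Platr15 had 32.47, 31.47, 56.91 and 57.83 TPM, with fusion above wild type by log2 0.73 ± 0.233 (adjusted p = 0.142 by edgeR). Platr5 (2.65, 1.89, 2.92 and 6.44 TPM) and Platr26 (2.21, 0.95, 6.78 and 2.33 TPM) also had non-overlapping groups and did not pass. Each reached 5 TPM in 1 fusion library alone and so had to be high there. Over all genes tested, 32.4% had both fusion libraries above both wild-type libraries. In the remaining Platr genes, Platr3, Platr4, Platr7, Platr11, Platr20 and Platr27, the groups overlapped, as in Platr11 with 8.44 TPM in the parental library, 23.67 with the empty vector, 10.84 in fusion 1 and 21.23 in fusion 2.

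Lncenc1, an abundant noncoding RNA of naive ES cells, had 175.98 TPM in the parental library, 207.14 with the empty vector, 111.67 in fusion 1 and 149.67 in fusion 2. Both fusion libraries were lower, and the log2 fold change of -0.65 ± 0.191 missed the threshold (adjusted p = 0.118 by edgeR). Lockd, downstream of the cell cycle inhibitor gene Cdkn1b, had 5.64, 4.68, 3.02 and 2.96 TPM (log2 -0.98, adjusted p = 0.31 by edgeR). Panct2 had 7.31, 5.66, 4.67 and 5.22 TPM. Its log2 fold change was -0.86 from counts (adjusted p = 0.213 by edgeR) but -0.325 by limma on log2(TPM + 1). Eprn, known for a role in leaving naive pluripotency, overlapped between the groups at 21.18, 35.58, 38.06 and 21.19 TPM, and so did Gm2694 at 15.65, 7.97, 13 and 19.1 TPM.

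The noncoding RNAs of nuclear bodies and other abundant ones numbered 7, of which 6 were tested by edgeR and 0 passed, with 1 higher and 1 lower at an unadjusted p under 0.05, 2 higher by the DESeq2 Wald test (Miat and the untested Rmrp) and 0 by limma. Malat1, found in nuclear speckles, had 105.38 TPM in the parental library, 186.25 with the empty vector, 99.71 in fusion 1 and 105.97 in fusion 2 (log2 -0.62, adjusted p = 0.217 by edgeR). Neat1, the scaffold of paraspeckles, had 55.46, 135.33, 64.49 and 82.36 TPM in that order. In both genes the empty-vector library was the highest of the 4, and the groups overlapped. Tug1 (57.2, 65.25, 51.16 and 61.97 TPM) and 1700020I14Rik (21.84, 27.05, 26.49 and 26.61 TPM), which RefSeq names Oip5os1, overlapped between groups. 2900097C17Rik, named Norad in RefSeq and known to bind Pumilio proteins, had 29.25, 29.31, 34.2 and 41.22 TPM. Miat had 1.57, 2.76, 9.16 and 4.36 TPM, with a log2 fold change of 1.26 ± 0.394 that missed the threshold (adjusted p = 0.137).

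Rmrp, the RNA of a ribonuclease complex that carries no poly(A) tail, was listed at 0 in both wild-type libraries, at 2.24 TPM in fusion 1 and at 17.78 TPM in fusion 2. It was not tested, its 59 fusion counts were at least 17.9-fold higher than a floor of 3 counts over the wild-type group, and the libraries were made by poly(A) selection.

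Of the 7 host genes of small RNAs 0 passed by edgeR, by the DESeq2 Wald test, by limma or at an unadjusted p under 0.05, and the median of their log2 fold changes was -0.37. Snhg12 had 82.53, 70.21, 58.09 and 77.33 TPM, and Snhg6 had 70.24, 46.85, 32.29 and 57.33 TPM. Epb41l4aos, at 82.13, 73, 48.18 and 62.42 TPM, was the 1 host gene with both fusion libraries below both wild-type libraries (log2 -0.61, adjusted p = 0.274 by edgeR). Snhg20 had 22.01, 30.43, 25.61 and 21.31 TPM. The microRNA hosts Mir17hg (15.34, 10.85, 10.96 and 8.87 TPM) and Mir124a-1hg (3.11, 4.51, 3.78 and 6.08 TPM) overlapped between groups.

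Other listed members did not pass either. Tsix, the antisense partner of Xist, had 4.02, 5.18, 3.11 and 2.82 TPM (log2 -0.73, adjusted p = 0.225 by edgeR). Pvt1, beside Myc, had 15.06, 20.76, 10.06 and 9.6 TPM (log2 -0.84, adjusted p = 0.174), on a chromosome whose genes had a median shift of 0.32 (log2, against the mean of the libraries) in fusion 1. Gm12688, which starts 1316 bp from the pluripotency gene Foxd3 on the other strand, had 7.01, 9.78, 4.48 and 3.77 TPM (log2 -1.12, adjusted p = 0.212). In these 3 genes both fusion libraries were below both wild-type libraries, as in 16.6% of all genes tested. Tsix and Gm12688 reached 5 TPM in the wild-type group alone and so had to be high there. Bvht, known from heart development, overlapped between groups at 11.42, 20.86, 15.23 and 10.67 TPM.

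Genes whose products bind or process long noncoding RNAs were measured beside them. Of 30 such genes 30 were tested and 0 passed in either direction (median log2 difference -0.19) by edgeR, with 2 lower and 0 higher at an unadjusted p under 0.05 and 0 called by the DESeq2 Wald test or by limma. The paraspeckle proteins gave 356.38, 364.16, 391.79 and 372.37 TPM for Nono and 52.19, 113.95, 71.71 and 46.38 TPM for Pspc1, which, like Neat1, was highest in the empty-vector library. Upf1, a factor of RNA decay, had 59, 48.15, 33.24 and 40.02 TPM and Mettl3, an RNA methyltransferase, 43.41, 49.65, 33.54 and 34.49 TPM, both with non-overlapping groups and neither past the threshold (adjusted p = 0.131 and 0.237 by edgeR).

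The most abundant member, Gm10076, had 275.84, 243.13, 242.33 and 230.21 TPM, and its sequence is a near-identical copy of the ribosomal protein gene Rpl41, so reads of the pair can be shared out between them. A match of this kind, to another gene with at least 95% identity over at least 50% of a transcript on either strand, was found for 47 members. For some, as Frs3os with Frs3 and Gm16048 with Npr1, the match is the coding gene that the member overlaps and not a separate copy. Exons of 33 members overlap coding exons on the other strand. Leaving the 33 out left 5 higher and 1 lower, and leaving the 47 out left 7 higher and 1 lower (both alternatives were added after seeing the data). 1810058I24Rik, also among the 10 most abundant, had 87.97, 119.35, 125.74 and 94.51 TPM and overlapped between groups.

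Within each group 1 library stands against 1, so these differences have no test. Of 130 members at 5 TPM or more in either wild-type library, 14 (10.8%) were at least 2-fold higher with the empty vector than in the parental library, on the log2(TPM + 1) scale, and 1 (0.769%) was at least 2-fold lower. Over all genes at that level the shares were 3.24% and 1.42%. With the empty vector 97 members (74.6%) were above the parental library by any amount, against 61.9% of all genes. The largest differences upward were in Gm46332 (23.13 TPM in the parental library, 111.25 with the empty vector), Gm31659 (1.06 and 6.86) and C78283 (3.33 and 13.07), and downward, over all members, in Gm43079 (3.75 and 0.14, so not among the 130), Gm26916 (11.54 and 2.48) and Gm2694, the last less than 2-fold apart. Genes of chromosome 8, where Gm2694 and Gm31659 lie, had a median of 0.35 (log2, against the mean of the libraries) in the parental library and -0.13 with the empty vector.

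Between the fusion libraries, 11 of 146 members (7.53%) were at least 2-fold higher in fusion 2 and 9 (6.16%) at least 2-fold lower, against 3.82% and 1.8% of all genes, and 84 (57.5%) were above fusion 1 by any amount, against 51.9%. The largest differences upward in fusion 2 were in Rmrp, Gm32885 (9.67 TPM in fusion 1, 46.72 in fusion 2) and Platr3 (8.75 and 30.2), and downward in Hoxb5os, Gm16048 (9.54 and 2.12) and Gm11635 (7.22 and 2.21). With at least 10 TPM in the higher library the 20 members became 7, all higher in fusion 2 (8.54% of 82, against 2.94% of all genes), with 0 lower (1.53% of all genes). The members' levels were also lower than those of coding genes, and the part of counting error in these shares was not tested.

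**Figure D5:**
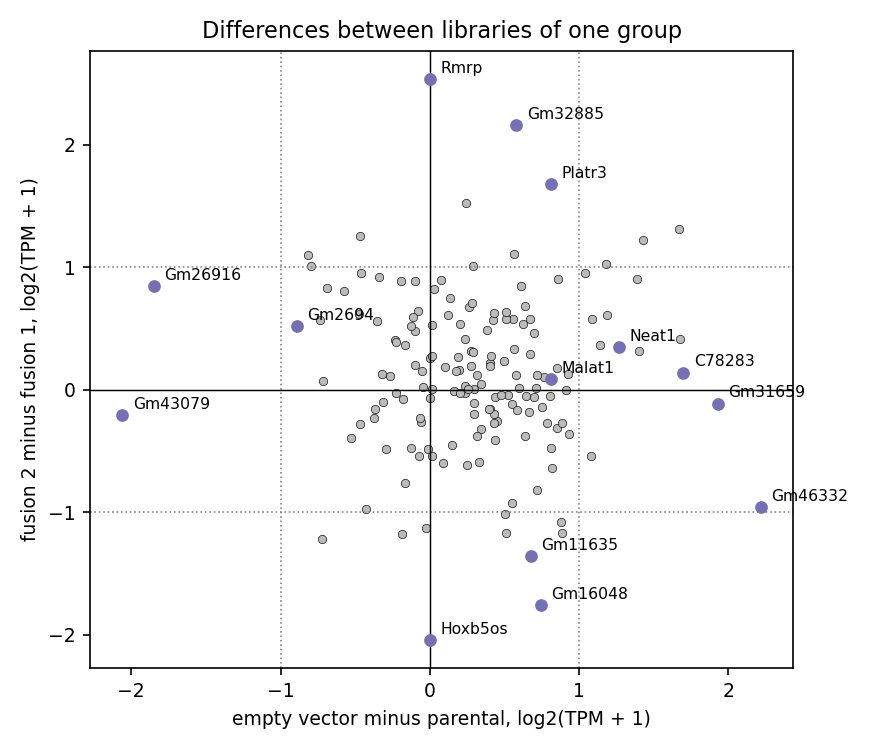
Difference in log2(TPM + 1) between the empty-vector and the parental library (x axis) and between fusion 2 and fusion 1 (y axis) for the 163 noncoding RNAs, with dotted lines at 2-fold; 14 members are named and drawn in purple. Most points lie to the right of 0, as 97 of 130 members at 5 TPM or more were higher with the empty vector, and Rmrp and Hoxb5os, at 0 in both wild-type libraries, mark the ends of the y axis.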

How the data were processed

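The authors deposited 1 gene table per library with expected counts, TPM and FPKM, per the file headers. Per the submitters' processing notes, the tools were STAR 2.7.10a with RSEM 1.3.3 and DESeq2 1.36.0, and the build GRCm38 (mm10). Per the labels' protocols, the kit was stranded and selected poly(A) RNA; the sources do not give the annotation release or the strand setting. RSEM's deposited expected counts share out reads that fit several genes. The deposited FPKM values were not used. Gene identifiers were matched to GENCODE vM21 (55141 of 55401).

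Expected counts were rounded, filtered (filterByExpr, minimum count 10), scaled by TMM and tested with edgeR 4.0.16 (robust quasi-likelihood, R 4.3.3), fusion (n = 2) against wild type (n = 2), with Benjamini-Hochberg adjustment over 16511 genes and a threshold of 0.05. The method was tested on simulated data. Variation between libraries (common BCV) was 25.6% on 2 residual degrees of freedom. Alternatives used DESeq2 1.42.0 and limma 3.58.1 on log2(TPM + 1). Counts of members are read against the shares over all genes.

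Named are all members past the threshold and their neighbours, the 10 most abundant, all members of the gene lists (nuclear, X inactivation, ES cell, small RNA host, Hox, lineage, growth, imprinting), the 3 most different in each direction within groups, and those at the TPM threshold; others named were chosen after their values were seen. A protein-coding gene is not reported here, and pairs of members with it were left out of the counts of neighbours. Members and lists were chosen with earlier results of these data known.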

Additional observations from a re-analysis of the deposited data

How the results depend on the processing

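With 2 libraries a group, the design has little power, and a member that did not pass is not shown to be unchanged; low counts limit precision for members near 5 TPM. Against 7 higher and 1 lower, no filter on low counts gave 17 higher and 9 lower, and the DESeq2 Wald test gave 12 and 6. No filter also gave 1 lower gene among the noncoding RNA-binding and processing genes, against 0. With 1 control alone fewer members were called. Platr10, not called there, kept log2 fold changes of -1.86 against the parental and -1.65 against the empty-vector library. The fit with no filter (16% of members called, 6.75% of all genes) and the DESeq2 test (11% and 7.73%) kept all 8 calls; the cause of the added calls was not tested. Members with a mean TPM of at least 5, or with at least 10 in any library, gave 3 higher each, being fewer genes. Leaving out 1 library at a time gave 2 to 8 higher and 0 to 2 lower, lowest without fusion 1. The 3 pairs of member and neighbour that both passed became 2 within 10 kb, 2 against each control alone, and 1 to 4 with 1 library left out (1 without fusion 1). The 20 members 2-fold apart between the fusion libraries became 7 at 10 TPM or more. The members' share of TPM moved to 0.267% and 0.249% in fusion 1, and to 0.29% and 0.27% in fusion 2, with a mean TPM of at least 5 and with at least 10 in any library. No member's fold change given in the text reversed in any of the fits run; those of other members were not compared. No paired analysis was possible because the wild-type libraries carry no replicate numbers in the labels.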

Other observations

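Members lay unevenly along the genome, and chromosome 13 held the most, 17. A rule chosen after seeing the data (at least 4 members, each within 1 Mb of the next) picked runs on chromosomes 13 and 12. Nearly all members of these runs were on the same side. On chromosome 13 (chr13:65241753-66708957) 9 members, among them Gm48168, Gm48170, Gm40987 and Gm26754, had summed TPM of 63.2 in the parental library, 105 with the empty vector, 157 in fusion 1 and 187 in fusion 2. Gm40988, also in this run, reached 5 TPM in the fusion group alone and so had to be high there. Both fusion libraries were above both wild-type libraries in 8 of the 9, Gm40988 among them, against 32.4% of all genes tested. The median log2 fold change was 1.01, and 0 passed edgeR's quasi-likelihood test (lowest adjusted p = 0.121). There were 3 higher at an unadjusted p under 0.05, 0 by the DESeq2 Wald test and 1 by limma. All 9 had expected counts that were not whole numbers in at least 1 library, so their reads were shared out with other genes, and they are not independent measurements. Gm48168, the most abundant of them, had 17.32, 23.24, 51.04 and 45.81 TPM and has a near-identical copy in Gm26754.

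On chromosome 12 (chr12:20426913-21421064) 4 members, Gm10479, Gm49698, Gm49700 and Gm4419, had summed TPM of 22.1, 21.7, 39.4 and 51.5 in the same order. Gm49698 and Gm4419 reached 5 TPM in the fusion group alone and so had to be high there. Both fusion libraries were above both wild-type libraries in all 4, in part through that choice, against 32.4% of all genes tested. The median log2 fold change was 0.93, with 0 past the threshold (lowest adjusted p = 0.139 by edgeR). There were 2 higher at an unadjusted p under 0.05 and 0 by the DESeq2 Wald test or limma. Of these, 3 had counts that were not whole.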
